A study of Cricetulus griseus with 3 samples.

Results

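Aminoacyl-tRNA synthetases, their scaffold proteins Aimp1 and Aimp2, and genes of the ATF4 stress response were measured in S-1 cells against DAPT-treated CHO cells. The members were chosen by a rule on gene names, with earlier results of these data known. They are 56 spots of a mouse cDNA array, with 38 gene names. The array had 17664 spots in all, of which 16928 were tested. Of the 56 spots, 39 carry the names of 28 synthetase or Aimp genes and 17 carry the names of 10 stress genes. The naming rule also lists Atf5, Ddit3, Chac1 and Sesn2, for which no spot with a single gene name was found, so that they were not analysed here.

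CHO cells are an established cell line from the ovary of a Chinese hamster. The S-1 line, derived from CHO through an intermediate line called γ-30, overexpresses subunits of γ-secretase, among them PEN2, APH1-a2 and NCT, and was grown with G418, puromycin, zeocin, hygromycin and blasticidin and exposed to 0.05% DMSO for 24 h. The untransfected CHO cells came from the same parental line, had none of the selection drugs, and were given 10 µM DAPT, a γ-secretase inhibitor, in 0.05% DMSO for 24 h. S-1 is a single transfected line, so the constructs, the drugs, the line and the inhibitor cannot be told apart as sources of a ratio. Each of the 3 arrays compared a culture of S-1 with a culture of CHO under DAPT. Every value has n = 3 arrays, except in the fits that leave an array out. S-1 RNA was in Cy3 on arrays 1 and 2 and in Cy5 on array 3.

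Aminoacyl-tRNA synthetases join each amino acid to its tRNA and so supply the ribosome. The cytosol and the mitochondrion use separate enzymes for most amino acids, and by convention a gene name ending in 2 marks the mitochondrial enzyme. Several cytosolic synthetases sit in a multi-synthetase complex held together by Aimp1, Aimp2 and Eef1e1. ATF4 is a transcription factor whose translation increases when the initiation factor eIF2 is phosphorylated, as during amino acid shortage or stress of the endoplasmic reticulum (ER). Its known targets include many cytosolic synthetase genes, the asparagine synthetase gene Asns, the serine synthesis genes Phgdh and Psat1, and the feedback regulators Trib3 and Ppp1r15a.

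All values are log2 ratios with S-1 in the numerator and CHO under DAPT in the denominator, in which 1 is a doubling of the signal and 0 is no difference. A ratio gives no level, so genes are not ranked by abundance and the cell type could not be checked by its markers. The transfected subunit gene Psenen was higher in S-1 cells on every array (2.84, 3.11 and 3.33 on arrays 1, 2 and 3), as was Aph1a (1.85, 2.17 and 2.04), which fits the labels. Ncstn had lower ratios of 0.33, 0.15 and 0.64 and did not pass the test (adjusted p = 0.0352, limma). The test was limma's moderated fit against 0 over the 16928 spots, with Benjamini-Hochberg adjustment and the threshold of 0.005 that the study used. The ratios were measured with mouse clones on hamster RNA.

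Clone collections, inferred here from spot positions, differed in their ratios, and the members are read within them. All 39 synthetase and Aimp spots lie at positions of H clones, whose 15360 tested spots had a median of 0.00. The stress genes were on 11 H spots, 4 P spots and 2 spots at positions with no clone ID in the lists of the study, called unlisted here. The 960 P spots had a median of 0.03, and the 480 unlisted spots a median of 1.56.

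The synthetase and Aimp genes were more often higher than lower in S-1 cells. Of the 39 spots, 15 (38.5%) were higher, 2 (5.13%) were lower and 22 did not pass. Over all tested spots the test called 9.68% higher and 8.52% lower, and over the H spots alone 6.76% higher and 8.52% lower. The median of the 39 spots was 0.23, and 29 of them (74.4%) were above 0, against 50.5% of all H spots. In gene values, the mean of the spots with the same name, 12 of 28 genes were higher and 2 lower, where 12.4% and 10.3% of all 8146 genes were called higher and lower. The changes were small, with called spots between 0.34 and 0.99 for the higher ones, and no called spot changed sign between arrays. The SD between arrays had a median of 0.08 over the 39 spots.

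These counts rest on all 3 arrays. Without array 1, 2 of the 39 spots were called higher (5.13%, with 4.58% of all spots; the spots were those of Farsb and Sars), without array 2 none was (1.55% of all spots), and without array 3 there were 20 (18.8% of all spots). At an unadjusted p below 0.05 in the same limma fits, 21, 20 and 25 of the 39 were higher, where 19.9%, 18.0% and 30.7% of all spots were. The lower calls went from 2 to 0, 0 and 2 in these fits, with 3.40%, 0.591% and 18.2% of all spots lower, and 2, 3 and 4 spots were lower at the unadjusted p, where 17.8%, 16.8% and 27.2% of all spots were. At a threshold of 0.05, 22 were higher and 3 lower, where 20.9% and 18.8% of all spots were. With the control spots of the array included in the fit, 4 of the 39 passed as higher, against 3.84% of all spots.

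**Figure D1:**
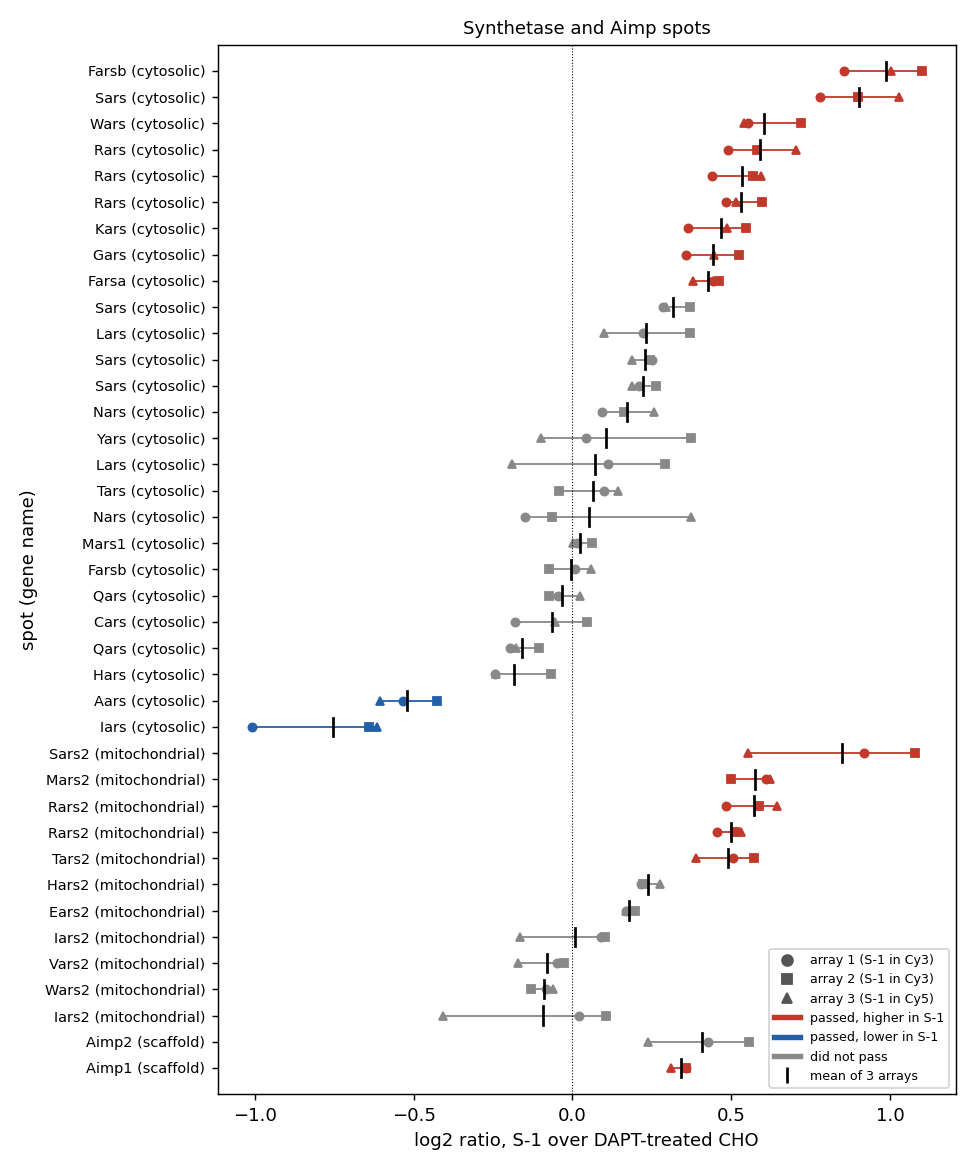
The 39 synthetase and Aimp spots (vertical axis, by compartment and then by mean) with their log2 ratios (horizontal axis, S-1 over CHO under DAPT). Symbols are the 3 arrays, bars the mean, and colour the call; red rows, the 15 that passed as higher, keep all 3 symbols right of 0.

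The seryl-tRNA synthetase genes were higher in both compartments. The highest of the 4 spots of cytosolic Sars (clone H3039G04) had ratios of 0.78, 0.90 and 1.03 on arrays 1, 2 and 3, with a mean of 0.90 ± 0.13 (SD, n = 3 arrays) and an adjusted p of 5.68e-04 by limma, which is 1.87 as a linear ratio. The other 3 Sars spots were lower in value, with means of 0.32, 0.23 and 0.22, and did not pass (adjusted p from 0.00537 to 0.0161), although all 3 were above 0 on every array. The gene value over the 4 spots was 0.42 and passed (adjusted p = 0.00157). Mitochondrial Sars2 stood at 0.92, 1.08 and 0.55, a mean of 0.85 ± 0.27 (adjusted p = 0.00333). Its lowest ratio was on array 3, the array with the dyes swapped.

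Both arginyl-tRNA synthetase genes were higher, and all of their spots passed with close values. The 3 spots of cytosolic Rars had means of 0.59, 0.53 and 0.53. On arrays 1, 2 and 3 they read 0.49, 0.58 and 0.70 for clone H3016E12, 0.44, 0.57 and 0.59 for clone H3029D11, and 0.48, 0.60 and 0.52 for the third spot. The highest and lowest spot means of Rars differed by 0.06, less than the SD between arrays of its highest spot (0.11). Mitochondrial Rars2 had 2 spots, at 0.48, 0.59 and 0.65 (mean 0.57) and at 0.45, 0.51 and 0.53 (mean 0.50). Adjusted p-values of these 5 spots lay between 0.00123 and 0.00157 (limma).

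Phenylalanyl-tRNA synthetase of the cytosol is built from an α and a β subunit, and both genes had a spot that passed. Farsa, the α subunit, had ratios of 0.44, 0.46 and 0.38 (mean 0.43 ± 0.04, adjusted p = 0.00204). Farsb, the β subunit, had the highest synthetase spot of all, clone H3017G06, at 0.86, 1.10 and 1.0 (mean 0.99 ± 0.12, linear ratio 1.98, adjusted p = 4.17e-04). A second Farsb spot stood at 0.01, −0.07 and 0.06, a mean of 0.00 with a 95% interval from −0.13 to 0.12. The 2 Farsb spots, both H clones of the same gene name, thus differed by 0.85, 1.18 and 0.95 on arrays 1, 2 and 3. The gene value of Farsb, 0.49, is the mean of a spot that passed and a spot near 0.

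Other cytosolic synthetases that were higher had 1 spot each. Wars, for tryptophan, had ratios of 0.55, 0.72 and 0.54 (mean 0.60 ± 0.10, adjusted p = 0.00133). Kars, for lysine, which encodes both the cytosolic and the mitochondrial enzyme, had 0.36, 0.55 and 0.49 (mean 0.47 ± 0.09, adjusted p = 0.00271). Gars, for glycine, which also serves both compartments, had 0.36, 0.53 and 0.45 (mean 0.44 ± 0.08, adjusted p = 0.00281). In all of these the lowest array was well above 0.

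The synthetases that were lower in S-1 cells were Iars and Aars. Iars, for isoleucine, had ratios of −1.01, −0.64 and −0.61, a mean of −0.75 ± 0.22 that is 1.69-fold lower in S-1 cells (adjusted p = 0.00291, limma). Aars, for alanine, had −0.53, −0.43 and −0.61, a mean of −0.52 ± 0.09 that is 1.44-fold lower (adjusted p = 0.00183). Each gene was measured by 1 H spot. Neither passed without array 1 or without array 2.

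The cytosolic synthetases of 8 other genes did not pass in their gene values. Lars, for leucine, had a gene value of 0.15 over 2 spots, Nars, for asparagine, 0.11 over 2 spots, and Yars, for tyrosine, 0.10. Tars, for threonine, stood at 0.07, Mars1, for methionine, at 0.03, Cars, for cysteine, at −0.06, and Qars, for glutamine, at −0.10 over 2 spots. Hars, for histidine, was below 0 on all 3 arrays, with a mean of −0.18 (adjusted p = 0.0562 for its spot). The 95% interval of the Mars1 spot ran from −0.09 to 0.14 and that of the Yars spot from −0.15 to 0.36, so the precision differed between genes.

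Of the 9 mitochondrial synthetase genes, 4 were higher, none was lower and 5 did not pass, where 12.4% of all genes were higher and 10.3% lower. At an unadjusted p below 0.05, 4 synthetase spots of all kinds were below 0, Iars and Aars included, where 22.8% of all spots were lower. Besides Sars2 and Rars2, Mars2, for methionine, had ratios of 0.61, 0.50 and 0.62 (mean 0.58 ± 0.07, adjusted p = 0.00108). Tars2, for threonine, had 0.51, 0.57 and 0.39 (mean 0.49 ± 0.09, adjusted p = 0.00233). Hars2 was at 0.24 and Ears2, for glutamate, at 0.18, both above 0 on every array with SDs of 0.03 and 0.02, and neither passed (adjusted p = 0.0121 and 0.0285). The study's lists give the name Hars2 to a different clone, annotated here as Dtd1 and not counted among these genes. That clone was lower (mean −1.01, adjusted p = 1.57e-04, limma). Iars2 stood at −0.04 over 2 spots, Vars2, for valine, at −0.08 and Wars2 at −0.09.

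Enzymes for the same amino acid did not always move together between the compartments. Serine and arginine had higher values in both. For methionine and threonine the mitochondrial gene passed (0.58 and 0.49) while the cytosolic gene stood near 0 (0.03 and 0.07). For tryptophan it was the cytosolic gene, at 0.60 against −0.09. For isoleucine the cytosolic Iars was lower at −0.75, and Iars2 stood at −0.04. The differences between the compartments were not tested.

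The scaffold gene Aimp1 was higher, with ratios of 0.36, 0.36 and 0.31 (mean 0.34 ± 0.03, adjusted p = 0.00361), the smallest change among the called spots. Aimp2 had a larger mean, 0.41, but more spread between arrays (0.43, 0.56 and 0.24), and did not pass (adjusted p = 0.00996). Over the multi-synthetase complex, a group put together after the values were seen, 10 genes had a value. Of these, Kars, Rars and Aimp1 were higher, Iars was lower and 6 did not pass, among them Eprs (0.08) and Eef1e1 (0.37), beside 12.4% higher and 10.3% lower over all genes.

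Among the stress genes, 6 of 17 spots (35.3%) were higher, none was lower and 11 did not pass. This was against 9.68% higher and 8.52% lower over all tested spots. In an unadjusted limma test at 0.05, 8 spots were higher and 2 lower, where 25.8% and 22.8% of all spots were. The 6 spots were unevenly placed: 2 of the 11 H spots (18.2%), 2 of the 4 P spots and both unlisted spots passed. All tested spots of these collections were called higher at 6.76% for H, 19.3% for P and 78.8% for unlisted spots, and lower at 8.52%, 12.8% and 0.833%. Without array 1, 4 of the 17 stress spots passed as higher (4.58% of all spots), without array 2 only the unlisted Cebpg spot (1.55% of all spots), and without array 3, 7 (18.8% of all spots). In a fit of H clones alone, in which 6.84% of spots were higher and 8.58% lower, the same 2 H spots passed, and 2 of 8 genes did, where 8.00% of genes were higher and 10.7% lower. The H spots of the stress genes had a median of −0.05.

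**Figure D2:**
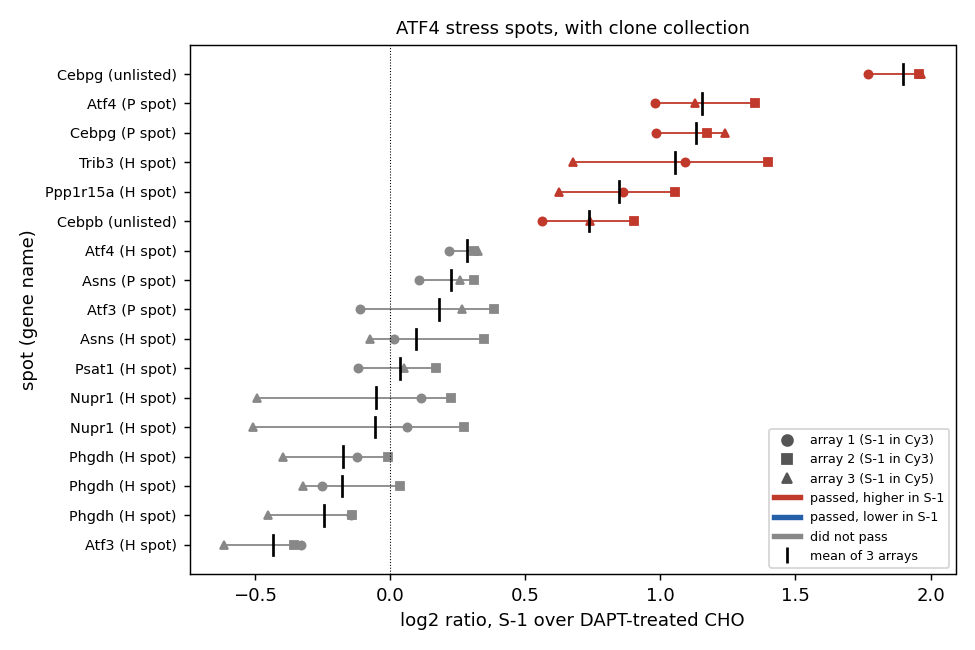
The 17 stress gene spots (vertical axis, with clone collection, ordered by mean) with their log2 ratios (horizontal axis, S-1 over CHO under DAPT). Symbols are the 3 arrays, bars the mean, and colour the call; the highest rows are an unlisted and P spots of Cebpg and Atf4, and the H spots that passed are those of Trib3 and Ppp1r15a.

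Atf4 itself was measured by a P spot and an H spot that differed. The P spot (clone P580) had ratios of 0.98, 1.35 and 1.13, a mean of 1.15 ± 0.19 and a linear ratio of 2.22 (adjusted p = 5.79e-04, limma). The H spot had ratios of 0.22, 0.31 and 0.32, a mean of 0.28 ± 0.06 (linear ratio 1.22), and did not pass (adjusted p = 0.00854). Both were above 0 on every array, and the P spot exceeded the H spot by 0.76, 1.04 and 0.80. The gene value of 0.72 passed (adjusted p = 8.66e-04), while the H spot did not in a fit of H clones alone (adjusted p = 0.00830).

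Cebpg and Cebpb encode leucine zipper factors of the C/EBP family, which can pair with ATF4. Neither had an H spot. Cebpg had ratios of 1.77, 1.96 and 1.96 on an unlisted spot (mean 1.90 ± 0.11, linear ratio 3.72, adjusted p = 1.17e-04) and of 0.98, 1.17 and 1.24 on a P spot, clone P220 (mean 1.13 ± 0.13, adjusted p = 3.07e-04). The unlisted spot was above the P spot by 0.78, 0.78 and 0.73. Cebpb, on 1 unlisted spot, had 0.56, 0.90 and 0.74 (mean 0.74 ± 0.17, adjusted p = 0.00178), which is less than the median of the unlisted spots (1.56). The part of the collection in these ratios was not tested.

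Atf3, a stress-induced repressor and activator of transcription, had spots with opposite signs. Its H spot stood at −0.33, −0.36 and −0.61, a mean of −0.43 ± 0.16 that did not pass (adjusted p = 0.00783). Its P spot stood at −0.11, 0.39 and 0.26 (mean 0.18, adjusted p = 0.233). Nupr1, a small chromatin-associated stress protein, had 2 H spots that were above 0 on arrays 1 and 2 and below 0 on array 3: 0.12, 0.22 and −0.49 on the first and 0.06, 0.27 and −0.51 on the second. Their means were −0.05 and −0.06 (adjusted p = 0.818 and 0.803). Only array 3 has the dyes swapped, so the dye and that pair of cultures cannot be told apart.

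The feedback regulators were the stress genes that passed on H spots. Trib3, a pseudokinase that is induced by ATF4 and binds it, had ratios of 1.09, 1.40 and 0.68, a mean of 1.06 ± 0.36 and a linear ratio of 2.08 (adjusted p = 0.00374). Ppp1r15a, also called GADD34, which directs a phosphatase to phosphorylated eIF2, had 0.86, 1.06 and 0.62, a mean of 0.85 ± 0.22 and a linear ratio of 1.80 (adjusted p = 0.00193). Both were lowest on array 3, with the dyes swapped. Neither passed without array 1 (1.04, adjusted p = 0.0149, and 0.84, adjusted p = 0.00918) or without array 2 (0.88, adjusted p = 0.0222, and 0.74, adjusted p = 0.0169). With the control spots included they did not pass either (adjusted p = 0.0161 for Trib3 and 0.00958 for Ppp1r15a).

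The amino acid synthesis genes did not pass on any of their 6 spots. Asns stood at 0.11, 0.31 and 0.26 on a P spot (mean 0.23, adjusted p = 0.0324) and at 0.02, 0.35 and −0.07 on an H spot (mean 0.10, adjusted p = 0.448). The 95% interval of the P spot ran from 0.08 to 0.37 and that of the H spot from −0.14 to 0.33. Phgdh, the first enzyme of serine synthesis, was below 0 in the mean on all 3 H spots (−0.17, −0.18 and −0.25). Its gene value of −0.20 did not pass (adjusted p = 0.0909). With the dye as a coefficient, where 20.6% of all spots were higher and 19.7% lower, 2 of the 3 Phgdh spots passed as lower (−0.23 and −0.30), as did the Atf3 H spot (−0.48). In that fit the Asns P spot (0.23) and the Atf4 H spot (0.29) passed as higher. Of the 17 stress spots, 8 were then higher and 3 lower. Psat1, the next enzyme of serine synthesis, stood at −0.12, 0.17 and 0.05 in the main fit (mean 0.04, 95% interval −0.14 to 0.21).

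**Figure D3:**
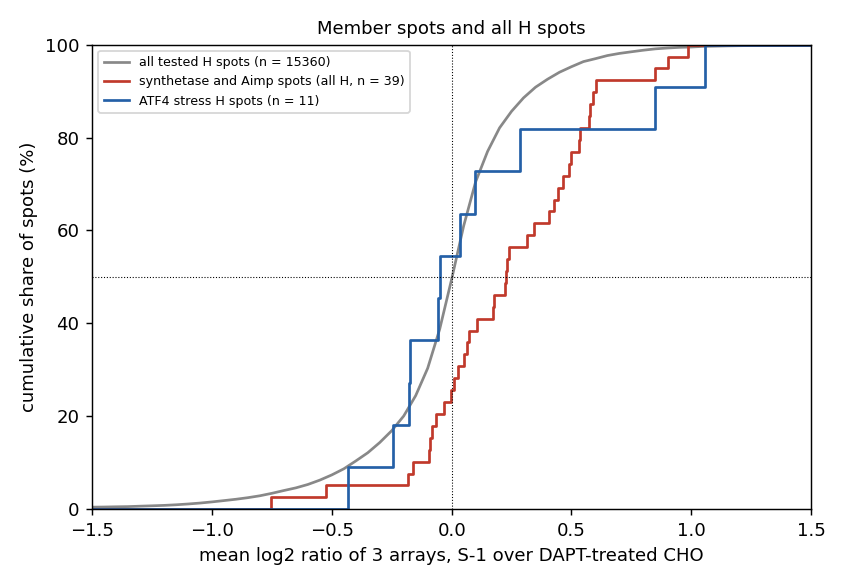
Percent of spots (vertical axis, cumulative) with a mean log2 ratio up to the value on the horizontal axis (3 arrays, S-1 over CHO under DAPT) for the 39 synthetase and Aimp spots, the 11 H spots of stress genes and all 15360 tested H spots. The synthetase line crosses 50% at 0.23, and those of the stress H spots and of all H spots at −0.05 and 0.00.

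Repeated spots give a measure of how far clones of the same name differ. Of the 38 genes, 14 had several spots. Rars and Rars2 were the genes in which all spots passed on H clones alone, with differences of 0.06 and 0.07 between their highest and lowest spot. The spots of Farsb (0.99), Atf4 (0.87), Cebpg (0.76), Sars (0.68) and Atf3 (0.61) differed most, and in each of these the higher spot was above the lower one on all 3 arrays. In the other 7 genes the difference was at most 0.16 and no spot passed. For Farsb and Sars the spots were all H clones, and for the other 3 they were of different collections.

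**Figure D4:**
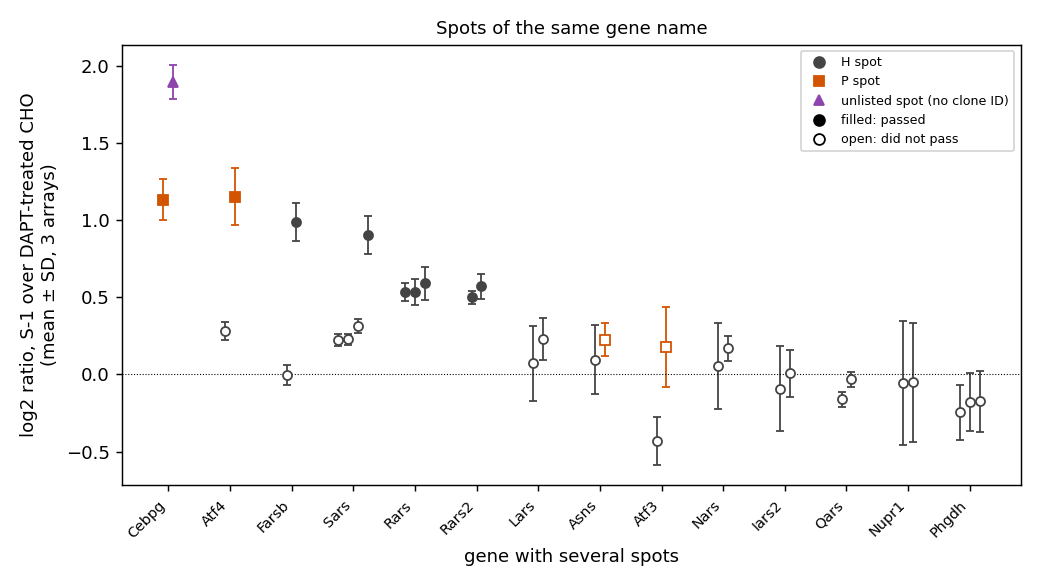
Mean log2 ratio ± SD over 3 arrays (vertical axis, S-1 over CHO under DAPT) of each spot of the 14 genes with several spots (horizontal axis). Shape and colour give the clone collection and filled symbols passed; the spots of Rars lie between 0.53 and 0.59, and those of Farsb at 0.00 and 0.99.

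Of 36 genes of eIF2 signalling, amino acid transport and amino acid metabolism with a value, 6 were higher, 4 lower and 26 did not pass, with a median of 0.02, where 12.4% of all genes were higher and 10.3% lower. The higher ones included subunits of eIF2B, the exchange factor that phosphorylated eIF2 blocks. Eif2b4 stood at 0.91, 0.99 and 0.63 (mean 0.85, adjusted p = 0.00126) and Eif2b2 at 0.53, 0.59 and 0.40 (mean 0.51, adjusted p = 0.00185), and 4 of the 5 subunit genes passed as higher (12.4% of all genes), a group formed after the values were seen. Got1, a transaminase, was at 0.66 over an H and an unlisted spot, and at 0.25 on its H spot alone, which did not pass in the gene fit of H clones alone (adjusted p = 0.00747).

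ATF4 targets and related genes that were lower included Vldlr, a lipoprotein receptor (−1.48), the mitochondrial enzyme gene Pck2 (−0.84) and the alanine transaminase gene Gpt2 (−0.68), each with an adjusted p below that of Trib3. The transporter genes Slc3a2 (0.01) and Slc7a5 (0.00), which together form an amino acid exchanger and are known ATF4 targets, and the cystathionine enzymes Cth (0.01) and Cbs (0.03), stood near 0. These 4 were named after their values were seen. Other genes of the same list that did not pass were further from 0 in either direction, among them Eif4ebp1 (0.50), Slc1a5 (0.22) and Slc38a2 (−0.34). They too were named after their values were seen.

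Of 17 genes for partners of tRNA charging with a value, 4 were higher, 1 was lower and 12 did not pass, with a median of 0.24, beside the same 12.4% and 10.3% of all genes. Qrsl1, a subunit of the mitochondrial enzyme that makes glutaminyl-tRNA, was higher at 0.60, 0.69 and 0.60 (mean 0.63, adjusted p = 5.80e-04). Trnt1, which adds the CCA end to tRNAs, was at 0.50 (adjusted p = 0.00124), the elongation factor gene Eef1d at 0.40 (adjusted p = 0.00168) and Asnsd1 at 0.29 (adjusted p = 0.00479). Dtd1, which removes D-amino acids from tRNAs, was lower at −1.01, −1.05 and −0.98 (mean −1.01, adjusted p = 1.57e-04). The study's lists name this clone, H3138C03, as Hars2, whereas the annotation used here gives Dtd1 and places Hars2 on another spot.

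ER chaperones and their partners, which the other arms of the unfolded protein response induce, had more lower than higher calls. Of 18 genes with a value, 9 were lower, 1 was higher and 8 did not pass, where 10.3% of all genes were lower and 12.4% higher, and the median was −0.29. Pdia4 had ratios of −0.69, −0.88 and −0.81 (mean −0.79, adjusted p = 5.18e-04), Pdia6 a mean of −0.66, Calr −0.65 and Dnajc3 −0.58. Sel1l was lowest at −0.94, on a P spot. Hspa5, the chaperone BiP, was the 1 gene higher, at 0.83 over 2 P and 4 H spots, and the sign turned on its H spots alone, to −0.78 (adjusted p = 6.00e-04). Differences between these lists and the members were not tested.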

How the data were processed

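The arrays were scanned and read with GenePix Pro, and the authors deposited 1 log2 ratio per spot and array, made from amplified RNA and normalised by lowess within print-tip groups, with no background subtracted. Signal intensities were not used here, so no signal over background is given and background correction and dim-spot filters could not be varied. The number of arrays limits the precision. In all 3 columns a positive value means more signal in S-1. Spots at 23 positions of each of 32 blocks with no gene name (736 spots) were taken as controls and left out. limma 3.58.1 in R 4.3.3 fitted 1 coefficient against 0 (3.05 prior degrees of freedom), on spots and on gene means, adjusted over the whole table. The code of the fit was checked on simulated data, in which the changes were larger than those of the member spots. That check does not bear on changes of the size reported here. Python 3.11.15, pandas 2.3.3, NumPy 2.4.6 and Matplotlib 3.10.9 made tables and figures. Names came from the array's annotation and may be old. Clone IDs were taken from the study's lists, paired to spots by ratio (2431 clones with 1 match at a relative tolerance of 1e-05, 2430 in the collection of their letter). The folds in those lists are larger in size than the linear ratios given here by a constant factor, which the pairing allowed for. Values and p-values of those lists were not used otherwise. The collections were inferred from spot positions within the blocks and from this same pairing, so the match of letters is no separate check of them. The study describes the cultures as biological triplicates, and the labels give 1 numbered replicate pair per array. No sequences of the clones were used here.

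The members, lists and tests were chosen with earlier results of these data known. Every member gene was named, with values per array for passing spots and for spots of Atf3, Atf4, Cebpb, Cebpg, Trib3, Asns and Ppp1r15a, and of each other list up to 6 passing genes with the largest values. Alternatives were a threshold of 0.05, control spots included, median centring, scaling to 1 median absolute ratio, quantile normalisation, the dye as a coefficient, H clones alone, unlisted spots left out, medians over the spots of a gene, and each array left out.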

Additional observations from a re-analysis of the deposited data

How the results depend on the processing

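Median centring, scaling, quantile normalisation, leaving out the unlisted spots and taking medians over spots kept every count of calls within 1.5 times the reported one. With the control spots included, 4 synthetase and Aimp spots were higher and 0 lower (23 and 4 at an unadjusted p below 0.05, limma), and 3 stress spots were higher. The control spots carry no gene name, so that this setting gave no gene values. With H clones alone, 2 of 11 stress spots and 2 of 8 stress genes were higher. The counts of lower stress spots were 1 at a threshold of 0.05 and 3 with the dye as a coefficient, where 1 stress gene was lower. In that dye fit 20 synthetase and Aimp spots (51.3%) and 8 stress spots (47.1%) were higher, against 20.6% of all spots. A spot's own spread in the dye fit comes only from the arrays that share a dye order. Leaving out each array in turn gave from 0 to 20 higher and from 0 to 2 lower synthetase and Aimp spots, from 1 to 7 higher and from 0 to 1 lower stress spots, from 0 to 14 higher and from 0 to 2 lower synthetase and Aimp genes, and from 1 to 5 higher stress genes. No called spot changed sign under any of these settings. Each array already holds the ratio of 1 pair of cultures, so the fit against 0 keeps the pairing. With S-1 RNA in Cy3 on both arrays that remain, the fit without array 3 cannot tell the dye from the line.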
